A study of Homo sapiens with 6 samples.

Results

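The 38 genes described here belong to the NF-kB pathway and its inflammatory targets: the dimer subunits, their inhibitors, the kinases, receptors and adaptors that lead to them, the feedback inhibitors and the inflammatory target genes. They were chosen by gene symbol, out of 61860 genes in the count table. Of these, 36 had enough counts to be tested, among 15476 tested genes in all. The other two, IER3 and CCL20, had 39 and 8 counts over the 6 libraries.

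NF-kB is a family of transcription factors that IkB proteins hold in the cytoplasm until a kinase complex marks them for destruction. The canonical branch runs from TNF and IL-1 receptors through ubiquitin ligases and the IKK complex to RELA and NFKB1 dimers, and the noncanonical branch runs from receptors such as CD40 through the kinase NIK to the processing of NFKB2 and dimers with RELB. The dimers turn on chemokines, cytokines and adhesion molecules, and also the IkB proteins and enzymes that shut the pathway down again. In kidney carcinoma cells the pathway is known for its links to survival and to the recruitment of leukocytes.

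RNA came from A498, a human line of clear cell kidney carcinoma, grown in MEM with 10% serum. Knockdown cells (PTPRZ_Si, 3 libraries) were set against control cells (PTPRZ_nc, 3 libraries), to ask what loss of PTPRZ1, a receptor tyrosine phosphatase, does to the transcriptome. The labels name siRNA for PTPRZ_Si and a plasmid for PTPRZ_nc, so the means of knockdown and the knockdown itself cannot be told apart. Nothing in the labels says that the replicates were separate cultures, so a p-value here measures how these 6 libraries spread, and that spread may be technical.

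CPM are counts per 1e6 counts of a library, scaled between libraries by TMM, and fold changes are PTPRZ_Si over PTPRZ_nc. Total counts ran from 14407846 to 21469746 in PTPRZ_Si libraries and from 13726908 to 18609477 in PTPRZ_nc libraries. PTPRZ1 had 0 counts in all 6 libraries, which allows at most 0.0531 CPM in PTPRZ_Si and 0.0605 CPM in PTPRZ_nc (3 counts over the group, counting error only), so the counts do not show the knockdown. RNF26, the ubiquitin ligase of the series title, averaged 41.1 ± 3.55 CPM in PTPRZ_Si and 48.95 ± 0.94 CPM in PTPRZ_nc (SD, n = 3 each), which gave -0.25 as log2 fold change (edgeR, adjusted p = 0.0128), and it was not called without knockdown replicate 1 (adjusted p = 0.061) or 2 (0.0697). Control replicate 2 stood apart from the other controls: its chi-square per degree of freedom over genes was 4.85 and 5.71 against them, while they differed from each other by 2.57. The summed level of 12 A498 markers was 3181 to 3313 CPM in PTPRZ_Si and 3116 to 3163 CPM in PTPRZ_nc. Most of this sum was KRT8, VIM and KRT18, with KRT8 at 1315 CPM in PTPRZ_Si and 1198 CPM in PTPRZ_nc. EPCAM and NDUFA4L2 had only 19 and 26 counts. CA9 was also low, at 2.54 CPM in PTPRZ_Si and 3 CPM in PTPRZ_nc, as was LHX1, at 0.965 and 2.06 CPM. Single A498 markers differed between the groups: of 10 tested, 7 were higher and 2 lower in PTPRZ_Si (edgeR). Among all tested genes 14% were higher and 13.4% lower, and among those that averaged 5 CPM or more 19.3% and 17.8%. PAX8 averaged 556 ± 22.4 CPM in PTPRZ_Si and 313.2 ± 21.3 CPM in PTPRZ_nc. CDH6 averaged 154.7 ± 4.68 CPM in PTPRZ_Si and 73.98 ± 8.13 CPM in PTPRZ_nc. VIM averaged 788.1 ± 28.9 CPM in PTPRZ_Si and 1181 ± 47.1 CPM in PTPRZ_nc. Of 17 immune and blood cell markers, 9 were at 0 in all 6 libraries, the pan-leukocyte gene PTPRC among them, and the list summed to 2.54 to 3.46 CPM in PTPRZ_Si and 2.77 to 3.62 CPM in PTPRZ_nc. Of 10 stromal and endothelial markers, CDH5 and LUM were at 0, and the list summed to 25.92 to 28.86 CPM in PTPRZ_Si and 36.22 to 46.91 CPM in PTPRZ_nc, most of it COL1A1. The part of these differences in the results was not tested.

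Several of the genes are textbook NF-kB targets, and short stretches of their promoters are shown because they carry the element that the dimers bind. The genes that share it were not all called in the comparison below, and whether they differed in their change was not tested. The sequences are from RefSeq (GRCh38.p14), in windows from 250 bases before to 50 bases after an annotated gene start, and 31 of the 38 genes had a window. Capitals mark the kB element, which may match on either strand. In the first 4, all CXC chemokine genes of chromosome 4, it is GGAATTTCC.
CXCL8: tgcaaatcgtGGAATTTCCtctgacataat
CXCL1: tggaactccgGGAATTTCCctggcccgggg
CXCL2: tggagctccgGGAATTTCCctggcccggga
CXCL3: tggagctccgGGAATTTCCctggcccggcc
NFKBIA: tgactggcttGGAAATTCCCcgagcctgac
NFKB2 upstream start: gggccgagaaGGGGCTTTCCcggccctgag
NFKB2 downstream start: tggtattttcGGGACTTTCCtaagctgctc
IL32: ctgtactcagGGAGTTTCCCcagccagctg
TNIP1: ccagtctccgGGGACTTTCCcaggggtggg

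The stretches lie at chr4:73740468-73740497 (plus strand) for CXCL8, chr4:73869305-73869334 (plus) for CXCL1, chr4:74099253-74099282 (minus) for CXCL2 and chr4:74038748-74038777 (minus) for CXCL3. Those of the other genes lie at chr14:35404811-35404840 (minus) for NFKBIA, chr10:102394490-102394519 and chr10:102395674-102395703 (both plus) for NFKB2, chr16:3065295-3065324 (plus) for IL32 and chr5:151081057-151081086 (minus) for TNIP1. By GENCODE 29, those of CXCL8, CXCL1 and NFKBIA lie outside the gene, those of CXCL2, CXCL3 and the upstream start of NFKB2 lie wholly in an exon of the gene, and those of IL32, TNIP1 and the downstream start of NFKB2 lie partly in one (28, 28 and 11 of 30 bases). None is in coding sequence. For NFKB2, upstream and downstream name the starts whose windows held a consensus match. A window of NFKB2 still further upstream (chr10:102393860-102394159) held none. In CXCL1, CXCL2 and CXCL3 the elements begin 78, 77 and 78 bases before the gene start, and in CXCL8 91 bases before it.

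Searched on both strands, GGAATTTCC was present in the windows of 10 of the 31 genes (32.3%), against 153 of 27305 genes with windows (0.56%). CXCL1, CXCL2 and CXCL3 are paralogs with nearly the same stretch, so they are not independent matches. This string was chosen after the sequences had been read. The degenerate kB consensus of 10 bases, which overlaps that string, was present in 15 of the 31 (48.4%), against 1937 of 27305 (7.09%). By the result of the comparison below, a consensus match was found in 1 of 3 genes called higher (TNIP1), in 3 of 10 called lower (CXCL1, IL32 and NFKB2), in 10 of 17 not called (58.8%) and in CCL20, which was not tested. This split depends on the form of the motif. CXCL8 and ICAM1, both called lower, hold GGAATTTCC but have no match to the consensus of 10 bases. A match describes letters in a window, and the absence of one says nothing about the factor.

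Among the 36 tested genes, 10 were lower and 4 were higher in PTPRZ_Si, and 22 were not called (edgeR quasi-likelihood test, Benjamini-Hochberg adjusted p of at most 0.05 over all tested genes). The 10 were NFKB2, MAP3K14, TRAF1, BIRC2, ZC3H12A, SOD2, ICAM1, CXCL1, CXCL8 and IL32, and the 4 were TNFRSF1A, TNIP1, CCL2 and IL1B. In bulk RNA, fewer cells with a transcript and less of it per cell cannot be told apart. Over all tested genes, 27.4% were called, 14% higher and 13.4% lower. Of the 36 genes, 38.9% were called, 11.1% higher and 27.8% lower. Values of the 3 PTPRZ_Si libraries did not overlap those of the 3 PTPRZ_nc libraries for 19 of the 36 (52.8%), against 40.8% of all tested genes.

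Most of the 36 genes averaged 5 CPM or more. Of the 11014 genes that averaged 5 CPM or more, 37.1% were called, 19.3% higher and 17.8% lower. Of the 33 NF-kB genes at that level, 13 were called (39.4%), 3 higher (9.09%) and 10 lower (30.3%). The share called was near the 37.1% of all such genes. The share called higher was below their 19.3%, and the share called lower was above their 17.8%. The median log2 fold change of the 36 was -0.07, against 0.00 over all tested genes, and the median size of change without its sign was 0.14 on the log2 scale against 0.18. No test was made of the list as a whole.

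**Figure D1:**
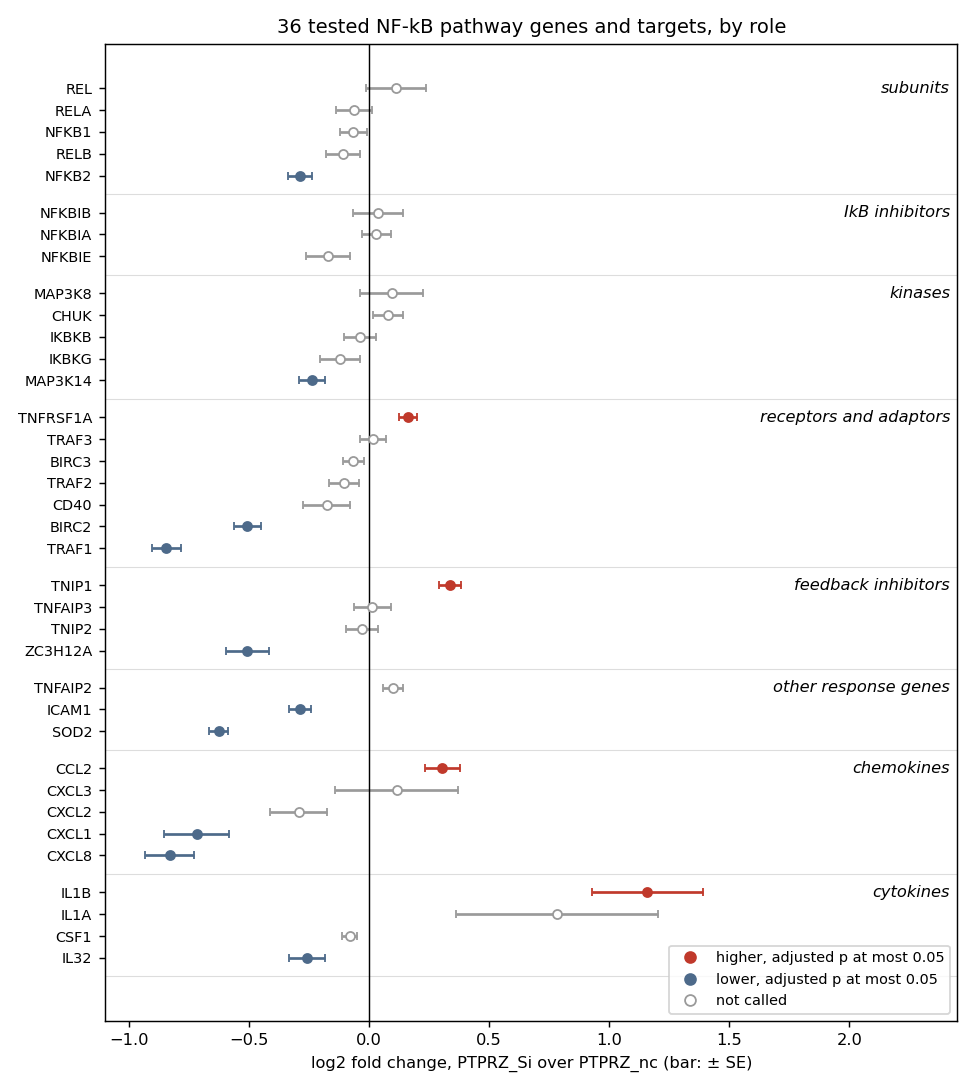
Log2 fold change of PTPRZ_Si over PTPRZ_nc (horizontal axis, bars ± SE) for the 36 tested genes, grouped by role. The 4 genes called higher lie between 0.16 and 1.16, the 10 called lower between -0.84 and -0.24, and the IkB inhibitors hold no called gene.

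Of the 5 subunits, 1 fell and 4 were not called (20% called, beside 27.4% of all tested genes). NFKB2 (ENSG00000077150, chr10:102394110-102402529), which encodes the p100 precursor of the noncanonical subunit p52, had 210.2, 203 and 211.5 CPM in PTPRZ_Si, against 248, 275.8 and 240.4 CPM in PTPRZ_nc. All 3 knockdown libraries were below all 3 controls, with control replicate 2 the highest, and the log2 fold change was -0.29 (SE 0.05, edgeR adjusted p = 3.29e-04).

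The other subunits were at similar levels in both groups. RELA, the main activating subunit, averaged 63.34 ± 5.43 CPM in PTPRZ_Si and 66.14 ± 6.47 CPM in PTPRZ_nc (SD, n = 3 each), and NFKB1, the precursor of p50, averaged 71.8 ± 1.86 CPM in PTPRZ_Si and 75.16 ± 4.11 CPM in PTPRZ_nc. RELB, the partner of p52, averaged 39.79 ± 2.52 CPM in PTPRZ_Si and 42.86 ± 2.39 CPM in PTPRZ_nc. REL averaged 12.43 ± 1.26 CPM in PTPRZ_Si and 11.36 ± 1.74 CPM in PTPRZ_nc. The log2 fold changes of these 4 ran from -0.11 in RELB to 0.11 in REL, and their libraries overlapped between groups. REL is the least certain, since 43.3% of its exon length is shared with the gene AC010733.2 on the same strand.

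None of the 3 IkB inhibitors was called, beside 27.4% of all tested genes. NFKBIA, whose protein IkB-alpha is both the main inhibitor and a rapidly induced target of NF-kB, had 59.81, 59.04 and 54.13 CPM in PTPRZ_Si, against 55.9, 55.98 and 57.24 CPM in PTPRZ_nc. The groups overlapped, and the log2 fold change was 0.03 (SE 0.06, edgeR adjusted p = 0.759). NFKBIB averaged 29.56 ± 1.96 CPM in PTPRZ_Si and 29.12 ± 5.53 CPM in PTPRZ_nc, and NFKBIE averaged 20.27 ± 1.22 CPM in PTPRZ_Si and 22.88 ± 2.38 CPM in PTPRZ_nc (SD, n = 3 each).

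Of the 5 kinase genes, 1 fell (20% called, beside 27.4% of all tested genes). MAP3K14 (ENSG00000006062, chr17:45263119-45317145) encodes NIK, which starts the noncanonical branch, and it had 109.7, 102.1 and 112.5 CPM in PTPRZ_Si, against 124.1, 135.7 and 122.3 CPM in PTPRZ_nc. The groups did not overlap, and the log2 fold change was -0.24 (SE 0.05, edgeR adjusted p = 0.00339). An antisense gene shares 12.3% of its exon length, and the counting did not use strand.

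The IKK complex itself was not called in any of its 3 genes. CHUK, the kinase IKK-alpha, averaged 43.5 ± 1.6 CPM in PTPRZ_Si and 41.14 ± 0.517 CPM in PTPRZ_nc, with no overlap between the libraries (log2 fold change 0.08, edgeR adjusted p = 0.387). IKBKB, the kinase IKK-beta, averaged 44.38 ± 1.91 CPM in PTPRZ_Si and 45.69 ± 2.24 CPM in PTPRZ_nc. The regulatory subunit gene IKBKG averaged 38.19 ± 1.28 CPM in PTPRZ_Si and 41.76 ± 5.61 CPM in PTPRZ_nc. Of the 75-base stretches in IKBKG transcripts, 29.3% also occur in other genes, its pseudogene among them, so its count is uncertain. MAP3K8, the kinase TPL2 that p105 holds inactive, averaged 10.52 ± 0.994 CPM in PTPRZ_Si and 9.98 ± 1.63 CPM in PTPRZ_nc and was not called.

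Of the 7 receptor and adaptor genes, 2 fell and 1 rose (42.9% called, beside 27.4% of all tested genes). TRAF1 (ENSG00000056558, chr9:120902393-120929173), an adaptor of TNF receptors that is itself an NF-kB target, had 32.76, 33.7 and 34.06 CPM in PTPRZ_Si, against 57.59, 61.16 and 61.88 CPM in PTPRZ_nc. The 2 groups stood far apart, with little spread inside each. The log2 fold change of -0.84 (SE of 0.06, adjusted p = 3.07e-08 in edgeR) was the lowest of the 36 genes.

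BIRC2 (ENSG00000110330, chr11:102347211-102378670) encodes cIAP1, a ubiquitin ligase that acts at TNF receptors and keeps NIK low. It had 68.8, 75.7 and 67.22 CPM in PTPRZ_Si, against 97.02, 103.5 and 100.8 CPM in PTPRZ_nc, again without overlap, and the fitted log2 fold change was -0.51 (SE 0.06, edgeR adjusted p = 3.17e-06). Its neighbour and paralog BIRC3, which encodes cIAP2 and is an NF-kB target, had 182.1, 188.2 and 182.7 CPM in PTPRZ_Si, against 196.5, 182.8 and 198.9 CPM in PTPRZ_nc. The BIRC3 libraries overlapped, and its log2 fold change was -0.07 (SE 0.05, edgeR adjusted p = 0.315). Transcripts of neither gene shared a 75-base stretch with another gene. The difference between the paralogs was not tested.

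TNFRSF1A (ENSG00000067182, chr12:6328757-6342114), the main signalling receptor for TNF, had 439.7, 453.2 and 444.4 CPM in PTPRZ_Si, against 400.5, 397.1 and 398.4 CPM in PTPRZ_nc. The difference was small next to that of TRAF1, and all knockdown libraries were higher than all controls. Its log2 fold change was 0.16 (SE 0.04, edgeR adjusted p = 0.00299). CD40, a receptor that feeds the noncanonical branch, averaged 13.48 ± 0.242 CPM in PTPRZ_Si and 15.17 ± 1.21 CPM in PTPRZ_nc and was not called (adjusted p = 0.205), although its libraries did not overlap. TRAF2 averaged 62.7 ± 2.08 CPM in PTPRZ_Si and 67.6 ± 5.05 CPM in PTPRZ_nc (SD, n = 3 each), and TRAF3 averaged 68.78 ± 1.77 CPM in PTPRZ_Si and 68.01 ± 2.54 CPM in PTPRZ_nc. These adaptors, which with the cIAP proteins lead NIK to degradation, were not called.

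Of the 4 feedback inhibitors, 1 rose, 1 fell and 2 were not called (50% called, beside 27.4% of all tested genes). TNIP1 (ENSG00000145901, chr5:151029945-151093577), whose protein ABIN1 binds the deubiquitinating enzyme A20, had 229.1, 231.1 and 235.5 CPM in PTPRZ_Si, against 186.4, 192.7 and 172.6 CPM in PTPRZ_nc. The groups did not overlap, and the log2 fold change was 0.34 (SE 0.05, edgeR adjusted p = 3.55e-05). ZC3H12A (ENSG00000163874, chr1:37474552-37484379), which encodes regnase-1, a ribonuclease that degrades mRNAs of inflammatory cytokines, went the other way.

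ZC3H12A had 23.07, 21.36 and 25.21 CPM in PTPRZ_Si, against 31.83, 37.2 and 30.46 CPM in PTPRZ_nc, with a log2 fold change of -0.51 (SE of 0.09, adjusted p = 3.87e-04 in edgeR). TNFAIP3, the gene of A20 and a standard readout of NF-kB activity, averaged 33.67 ± 2.05 CPM in PTPRZ_Si and 33.41 ± 2.77 CPM in PTPRZ_nc (SD, n = 3 each) and was not called. TNIP2 averaged 70.4 ± 3.31 CPM in PTPRZ_Si and 72.14 ± 6.89 CPM in PTPRZ_nc and was not called.

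Of the other response genes, 2 of 3 tested fell (66.7%, beside 13.4% of all tested genes). SOD2 (ENSG00000112096, chr6:159669057-159745186), mitochondrial manganese superoxide dismutase, had 399.9, 405.1 and 409 CPM in PTPRZ_Si, against 603, 653.6 and 617 CPM in PTPRZ_nc. The groups were far apart, with a log2 fold change of -0.63 (SE of 0.04, adjusted p = 3.77e-09 in edgeR), the smallest p of the 36 genes. This row was named through GENCODE 29, which has 2 genes called SOD2, while the gene name table gives the symbol to an Ensembl ID not used here, so the naming of the row is less certain than that of the other genes. The second SOD2 entry and WTAP share 6.93% of its exon length.

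ICAM1 (ENSG00000090339, chr19:10270835-10286615), the adhesion molecule that leukocyte integrins bind, had 178.5, 165.7 and 175.8 CPM in PTPRZ_Si, against 213.8, 201.6 and 218.2 CPM in PTPRZ_nc. All controls were above all knockdown libraries, and the log2 fold change was -0.29 (SE 0.05, edgeR adjusted p = 1.84e-04). Genes on the opposite strand share 23.6% of its exon length, and the counting did not use strand, so its count is less certain.

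TNFAIP2, a TNF-induced gene, had 784.4, 770.4 and 783.9 CPM in PTPRZ_Si, against 712.1, 780.5 and 691.4 CPM in PTPRZ_nc. Only control replicate 2 overlapped the knockdown libraries. TNFAIP2 was not called with all 6 libraries (log2 fold change 0.10, edgeR adjusted p = 0.0927) and was called higher without control replicate 2 (0.15, edgeR adjusted p = 3.9e-04). IER3, an early stress response gene, was not tested. It had 1, 4 and 8 counts in PTPRZ_Si, against 13, 3 and 10 counts in PTPRZ_nc, and it lies in a stretch of chromosome 6 (29 to 34 Mb) in which few genes were counted. Of the protein-coding genes there, 172 of 182 (94.5%) had fewer than 100 counts over the 6 libraries, while elsewhere on the chromosome 344 of 857 (40.1%) did. IER3 is therefore not shown to be silent.

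**Figure D2:**
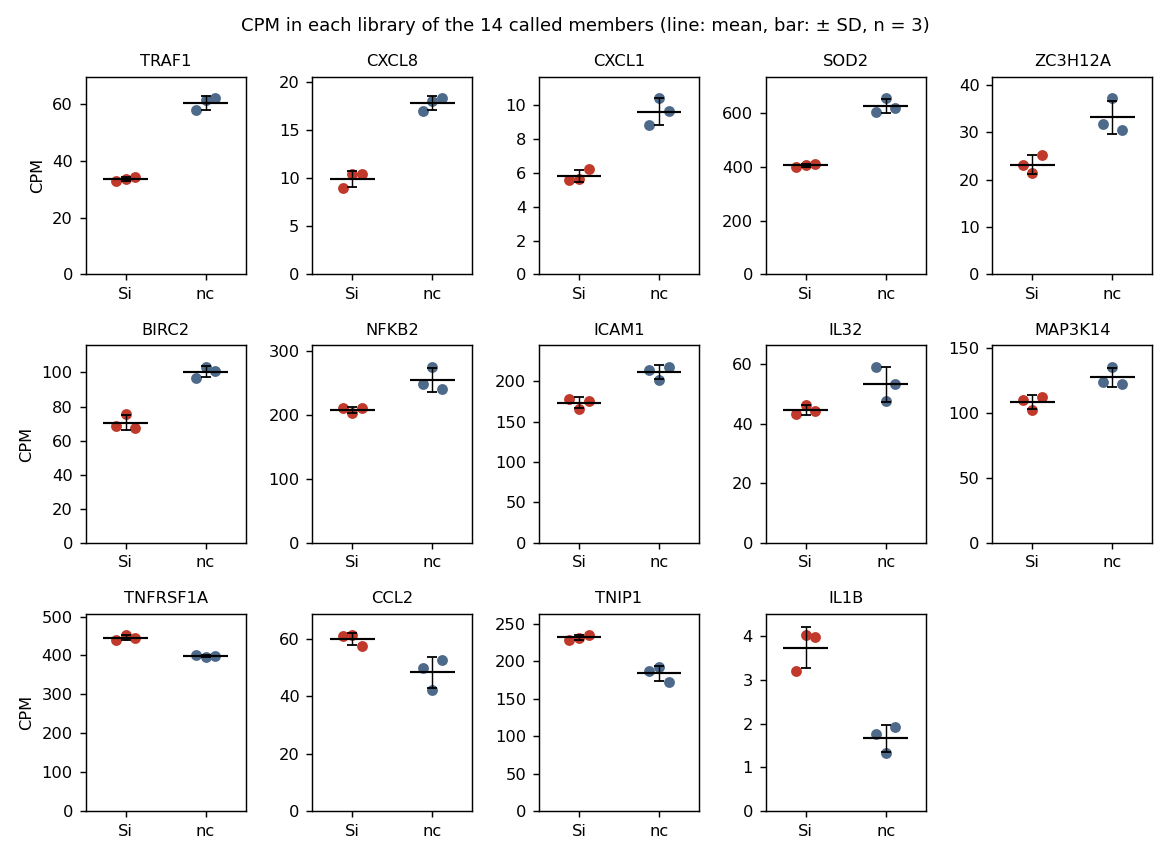
CPM in each library (points) of the 14 called genes, ordered by log2 fold change, with the group mean (line) and SD (bar, n = 3), PTPRZ_Si (Si) left of PTPRZ_nc (nc), and axes from 0. In each panel the 3 PTPRZ_Si points and the 3 PTPRZ_nc points do not overlap, and in IL32 the highest PTPRZ_Si value (46.32 CPM) is close to the lowest PTPRZ_nc value (47.43 CPM).

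Of 5 chemokines tested, 2 fell, 1 rose and 2 were not called. Thus 60% were called, beside 27.4% of all tested genes (14% higher and 13.4% lower). CXCL8 (ENSG00000169429, chr4:73740506-73743716), the neutrophil attractant interleukin-8, had 8.99, 10.42 and 10.39 CPM in PTPRZ_Si, against 16.94, 18.05 and 18.3 CPM in PTPRZ_nc. CXCL1 (ENSG00000163739, chr4:73869393-73871242), which attracts neutrophils through the same receptor CXCR2, had 5.58, 5.62 and 6.22 CPM in PTPRZ_Si, against 8.82, 10.38 and 9.6 CPM in PTPRZ_nc. Neither gene's groups overlapped. The log2 fold change was -0.83 for CXCL8 (SE 0.10, edgeR adjusted p = 1.03e-05) and -0.72 for CXCL1 (SE 0.13, edgeR adjusted p = 6.89e-04).

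CXCL2 and CXCL3, whose promoter stretches above share the same element, were not called. CXCL2 had 7.88, 7.87 and 8.05 CPM in PTPRZ_Si, against 9.76, 10.01 and 9.44 CPM in PTPRZ_nc. Its libraries did not overlap, and the log2 fold change was -0.29 (SE 0.12, edgeR adjusted p = 0.0808). CXCL3 had 4.53, 4.75 and 3.98 CPM in PTPRZ_Si, against 3.56, 2.34 and 6.08 CPM in PTPRZ_nc, a wide spread among controls, with a log2 fold change of 0.11 (SE 0.25). Of the 75-base stretches in their transcripts, 7.07% in CXCL2 and 4.57% in CXCL3 also occur in other genes, among them each other. Whether these genes differed in their change was not tested.

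CCL2 (ENSG00000108691, chr17:34255218-34257203), which attracts monocytes through the receptor CCR2, rose. It had 60.79, 61.39 and 57.54 CPM in PTPRZ_Si, against 49.94, 42.16 and 52.76 CPM in PTPRZ_nc, with control replicate 2 the lowest. The groups did not overlap, and the log2 fold change was 0.30 (SE 0.07, edgeR adjusted p = 0.00481). CCL20, which attracts cells through CCR6, had 1, 0 and 4 counts in PTPRZ_Si, against 2, 0 and 1 counts in PTPRZ_nc, too few to compare.

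Of the 4 cytokines, 1 rose, 1 fell and 2 were not called, and in all 4 the groups did not overlap. Of all tested genes, 27.4% were called, and 40.8% had groups that did not overlap. IL1B (ENSG00000125538, chr2:112829751-112836903), interleukin-1 beta, had 3.21, 4.03 and 3.98 CPM in PTPRZ_Si, against 1.75, 1.32 and 1.92 CPM in PTPRZ_nc. These values rest on 46, 84 and 85 counts in PTPRZ_Si and 30, 18 and 36 counts in PTPRZ_nc. The log2 fold change of 1.16 (SE of 0.23, adjusted p = 0.00117 in edgeR) was the highest of the 36 genes, at one of their lowest levels. Its neighbour IL1A, interleukin-1 alpha, had 9, 18 and 19 counts in PTPRZ_Si, against 9, 7 and 7 counts in PTPRZ_nc, and was not called (log2 fold change 0.78, SE 0.42, edgeR adjusted p = 0.188).

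IL32 (ENSG00000008517, chr16:3065297-3082192), a proinflammatory cytokine gene, had 43.15, 46.32 and 44.21 CPM in PTPRZ_Si, against 59.17, 47.43 and 53.18 CPM in PTPRZ_nc. The groups did not overlap, and control replicate 2 lay just above the knockdown libraries. On the log2 scale the fold change was -0.26 (SE 0.07, edgeR adjusted p = 0.0151). It was not called without knockdown replicate 1 (edgeR adjusted p = 0.0655), without knockdown replicate 3 (0.0603) or without control replicate 1 (0.109).

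CSF1, the growth factor of macrophages, had 1259, 1238 and 1284 CPM in PTPRZ_Si, against 1351, 1323 and 1326 CPM in PTPRZ_nc. All knockdown libraries were lower than all controls by a small margin. The log2 fold change of -0.08 (SE 0.03) was not called (edgeR adjusted p = 0.0677), and was called lower without control replicate 2 (edgeR adjusted p = 0.0147), with DESeq2 (adjusted p = 0.0393) and with limma-voom (adjusted p = 0.0433).

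Per kb of exon, the levels of these genes spanned a wide range, and the inflammatory genes were found at both ends. In order of the control level, CSF1 came first with 232.6 CPM per kb in PTPRZ_Si and 246.1 in PTPRZ_nc, then TNFAIP2 with 155 in PTPRZ_Si and 144.8 in PTPRZ_nc, and TNFRSF1A with 111.3 in PTPRZ_Si and 99.55 in PTPRZ_nc. ICAM1 had 46.76 CPM per kb in PTPRZ_Si and 56.99 in PTPRZ_nc. Genes of the canonical branch were spread over the order. NFKBIA had 24.3 CPM per kb in PTPRZ_Si and 23.76 in PTPRZ_nc, NFKB1 had 11.47 in PTPRZ_Si and 12.01 in PTPRZ_nc, and the kinases CHUK and IKBKB ranked lower, CHUK with 6.28 in PTPRZ_Si and 5.94 in PTPRZ_nc and IKBKB with 3.95 in PTPRZ_Si and 4.06 in PTPRZ_nc. IL1B was near the bottom, at 1.21 CPM per kb in PTPRZ_Si and 0.537 in PTPRZ_nc, with IER3, IL1A and CCL20 below it among controls.

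**Figure D3:**
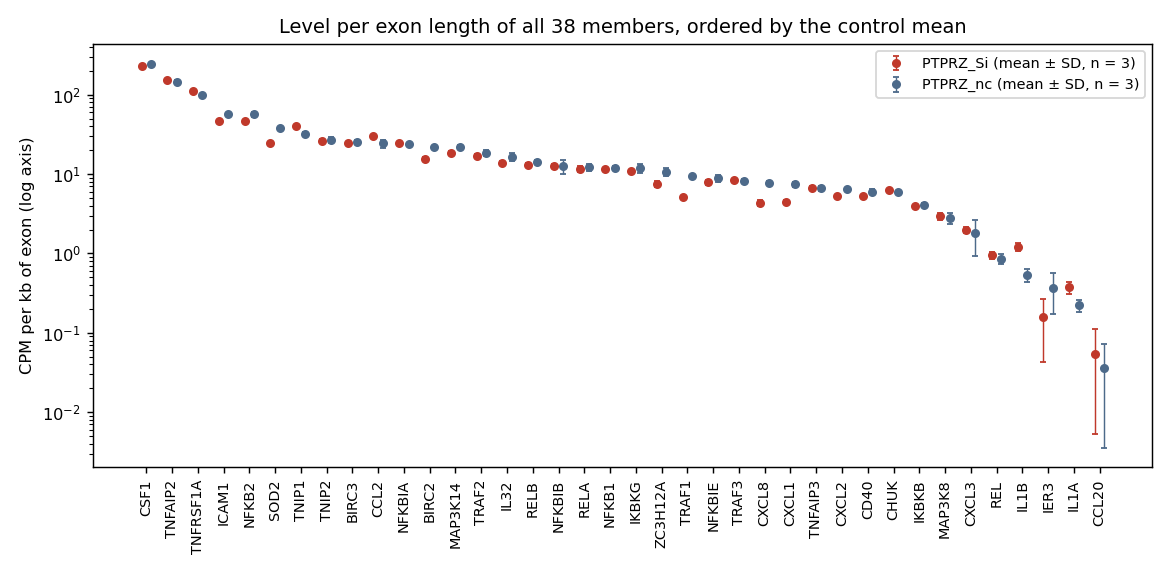
Level of all 38 genes in CPM per kb of exon (log axis), mean and SD of the 3 libraries of PTPRZ_Si (left point of each pair) and PTPRZ_nc (right point), ordered by the PTPRZ_nc mean. CSF1 is highest at 232.6 in PTPRZ_Si and 246.1 in PTPRZ_nc, and TRAF1, CXCL8 and CXCL1 lie in the lower part of the range with the PTPRZ_Si point below the PTPRZ_nc point.

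Another 5 lists of pathway genes outside the 38 were read from the same fit. Of 31 tested genes of TNF and IL-1 receptor signalling, 7 fell (22.6%), 2 rose (6.45%) and 22 were not called, with a median log2 fold change of -0.02. In all 29.03% were called, near the 27.4% of all tested genes, of which 13.4% fell and 14% rose. In the fit of genes that averaged 5 CPM or more, 3 of 29 rose and 6 fell, beside 19.3% and 17.8% of all such genes. Without control replicate 2, 4 rose and 6 fell, and 27.6% of all tested genes were called in either direction. IL1RAP, the co-receptor needed by the IL-1 receptor, averaged 16.69 ± 0.659 CPM in PTPRZ_Si and 34.21 ± 2.64 CPM in PTPRZ_nc (SD, n = 3 each), and its log2 fold change was -1.03 (SE 0.08, edgeR adjusted p = 7.59e-08). Its partner IL1R1 averaged 163.8 ± 8.48 CPM in PTPRZ_Si and 138.2 ± 7.08 CPM in PTPRZ_nc and rose by 0.25 on the log2 scale (edgeR adjusted p = 0.00172). The 2 chains of the IL-1 receptor thus changed in opposite directions.

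Downstream of it, the kinase gene IRAK2 fell by 0.50 on the log2 scale, with 42.66 ± 1.53 CPM in PTPRZ_Si and 60.1 ± 0.953 CPM in PTPRZ_nc. TAB2, which ties ubiquitin chains to the kinase TAK1, rose by 0.81, with 104.5 ± 3.26 CPM in PTPRZ_Si and 59.31 ± 5.92 CPM in PTPRZ_nc. The TWEAK receptor gene TNFRSF12A averaged 166.3 ± 5.83 CPM in PTPRZ_Si and 206.7 ± 14.9 CPM in PTPRZ_nc, a log2 fold change of -0.31. The adjusted p-values by edgeR were 7.3e-06 for IRAK2, 6.54e-08 for TAB2 and 2.42e-04 for TNFRSF12A.

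Of 22 tested genes of ubiquitin transfer and IkB turnover, 4 fell, 2 rose and 16 were not called, so that 27.3% were called, beside 27.4% of all tested genes. With only genes that averaged 5 CPM or more in the fit, 4 of 20 rose and 4 fell. Of all such genes, 19.3% rose and 17.8% fell. The E2 enzyme genes UBE2D3 and UBE2L3 rose by 0.25 and 0.30 on the log2 scale. RBCK1, which encodes HOIL-1 of the linear ubiquitin ligase, had a log2 fold change of -0.22. BTRC, the substrate receptor that recognises phosphorylated IkB, had -0.32, and the ISG15 protease gene USP18 had -0.44.

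Of 16 tested genes of IKK-related kinases and the CARD branch, 4 rose and 4 fell (25% each), beside 14% and 13.4% of all tested genes. With only genes that averaged 5 CPM or more in the fit, 4 of 15 rose and 3 fell. Of all such genes, 19.3% rose and 17.8% fell. When any 1 of the 3 knockdown replicates was left out, 2 rose, and without knockdown replicate 2 or control replicate 1, 2 fell. These fits called 19.9% to 21.8% of all tested genes in either direction. MALT1, the paracaspase that cleaves A20, averaged 102.4 ± 3.02 CPM in PTPRZ_Si and 75.73 ± 2.63 CPM in PTPRZ_nc (log2 fold change 0.44, edgeR adjusted p = 5.77e-06). The ubiquitin-binding receptor genes SQSTM1 and OPTN had log2 fold changes of 0.18 and -0.31, the kinase gene PRKCA 0.12 and the scaffold gene CARD10 -0.17, all called with the 6 libraries. SQSTM1 was not called without control replicate 3, PRKCA was not called when knockdown replicate 1, 2 or 3 or control replicate 3 was left out, and CARD10 was not called without knockdown replicate 2 or control replicate 1.

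Of 12 tested atypical IkB and nuclear cofactor genes, 4 rose (33.3%) and 1 fell (8.33%), beside 14% and 13.4% of all tested genes. All 12 averaged 5 CPM or more, and in the fit of such genes alone the counts were the same. Of all such genes, 19.3% rose and 17.8% fell. CREBBP, an acetyltransferase that acts as coactivator of RELA, averaged 158.6 ± 2.01 CPM in PTPRZ_Si and 98.84 ± 9.95 CPM in PTPRZ_nc (log2 fold change 0.68, edgeR adjusted p = 2.49e-07). BCL3, an IkB family member that works in the nucleus with p50 and p52, averaged 61.15 ± 3.33 CPM in PTPRZ_Si and 48.72 ± 0.724 CPM in PTPRZ_nc (0.33, edgeR adjusted p = 5.66e-04). The deacetylase gene HDAC3 had a log2 fold change of -0.17 (edgeR adjusted p = 0.0419). HDAC3 was not called when any one library was left out, with adjusted p up to 0.123, while the calls of CREBBP and BCL3 held in each such fit.

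Of 42 tested further NF-kB target genes, 16 fell (38.1%), 4 rose (9.52%) and 22 were not called, beside 13.4% and 14% of all tested genes. Their median log2 fold change was -0.24. With only genes that averaged 5 CPM or more in the fit, 15 of 31 fell and 5 rose. Of all such genes, 17.8% fell and 19.3% rose. VCAM1, an adhesion molecule for leukocytes, averaged 221.4 ± 3.88 CPM in PTPRZ_Si and 367.7 ± 17.1 CPM in PTPRZ_nc (-0.73, edgeR adjusted p = 1.92e-09). F3, the gene of tissue factor, averaged 9 ± 0.239 CPM in PTPRZ_Si and 20.48 ± 0.585 CPM in PTPRZ_nc (-1.19, edgeR adjusted p = 8.88e-08). VEGFA, the endothelial growth factor that is also a target of hypoxia signalling, had a log2 fold change of -0.36.

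IL6, KYNU and CEBPB were among the targets that rose. IL6 averaged 13.31 ± 0.325 CPM in PTPRZ_Si and 10.11 ± 0.624 CPM in PTPRZ_nc (0.40, edgeR adjusted p = 0.00927). KYNU, an enzyme of tryptophan breakdown, averaged 106.5 ± 3.2 CPM in PTPRZ_Si and 84.79 ± 0.992 CPM in PTPRZ_nc (0.33), and the transcription factor gene CEBPB had a log2 fold change of 0.16. CEBPB was not called when any library other than control replicate 2 was left out (adjusted p up to 0.127), and without knockdown replicate 1 or 3 the number of targets that rose was 2. Of all tested genes, 19.9% were called in either direction without knockdown replicate 1, and 20.4% without knockdown replicate 3. The genes of the ligands TNF, LTA and LTB had 0 counts in all 6 libraries, but they lie in the region of chromosome 6 described above for IER3 and are likewise not shown to be silent.

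**Figure D4:**
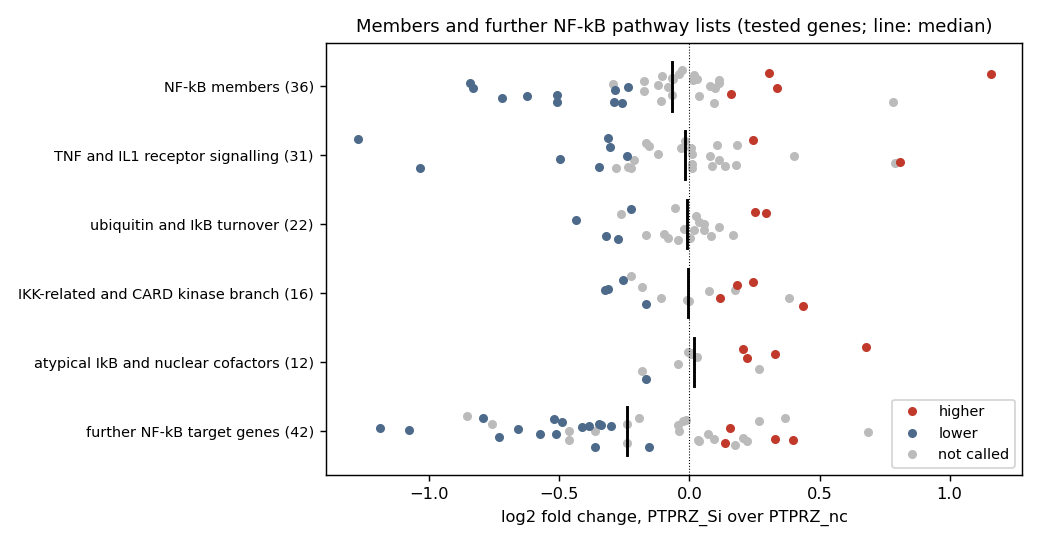
Log2 fold change of PTPRZ_Si over PTPRZ_nc (horizontal axis) of each tested gene (point) in the 36 NF-kB genes and the 5 further lists, with the number tested in brackets and the median as a line. The medians lie between -0.07 and 0.02 except that of the further target genes, at -0.24, and every list holds genes called in both directions.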

How the data were processed

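Per the file headers, the authors deposited raw counts of read pairs per gene, made with featureCounts 2.0.1 over exons of the Ensembl annotation, release 107. The build is hg38, per the submitters' processing notes. The command sets no strand option, so a read in overlapping genes could not be assigned by strand, and no option to count pairs with several placements. Groups and replicate numbers came from the labels. Symbols were matched for 42054 of 61860 genes from a gene name table and for 16371 from GENCODE 29, whose GRCh38 coordinates are printed, and 3435 had none.

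The test was edgeR 4.0.16 (R 4.3.3). After filterByExpr, 15476 genes holding 99.82% of the counts remained. TMM scaled the libraries, for the fit and for CPM. The quasi-likelihood functions glmQLFit and glmQLFTest gave 2-sided p-values, which were adjusted by Benjamini-Hochberg across those genes. The code was tested on simulated data. Alternatives were DESeq2 1.42.0, limma-voom (limma 3.58.1), DESeq2-style scaling, no filter or a minimum mean of 5 CPM, a replicate block, and leaving out each library. For genes named outside the 38, they were added after seeing the data.

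The 38 genes and the further lists were chosen with earlier results of these data known. All 38 are accounted for. From each further list, at most 3 called genes per direction are named, those of smallest p, and a few that qualify are not reported here. Promoter sequences are from RefSeq (GRCh38.p14). Intervals and limits for a count of 0 cover counting error only.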

Additional observations from a re-analysis of the deposited data

How the results depend on the processing

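The number of NF-kB genes called was 14 of 36 and lay between 13 and 16 under 12 alternatives. Leaving out one library at a time gave 4 to 5 genes higher and 9 to 11 lower, a median log2 fold change of -0.08 to -0.06, and 3182 to 4425 calls over all genes, against 4243 with all 6 libraries. Of the 14 called genes, 13 were called in every alternative in which they were fitted, and IL32 was not called in 3 of them; none changed direction. TNFAIP2 and CSF1 were the genes gained. Of 27 genes that the naming rule takes outside the 38, RNF26 and 26 from the further lists, 21 were called in every alternative. SQSTM1, PRKCA, CARD10, CEBPB, HDAC3 and RNF26 were not, and HDAC3 was lost in 9 of 12, the replicate block and DESeq2 among them. The cause was not tested. The replicate numbers were not taken as pairs: same-numbered libraries deviated together only weakly (r of 0.0271, 0.0333 and 0.0226), although each knockdown library correlated best with its own number. With the replicate block, 14 NF-kB genes and 4101 genes in all were called. Depth limits IL1A, IL1B, CXCL3, IER3 and CCL20, which have few counts.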
